A study of Mus musculus with 32 samples.

Results

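At 12 weeks of age, livers of jet-lagged mice were set against livers of mice on a steady schedule at zeitgeber time (ZT) 18, that is 18 hours after light onset and in the dark phase. The comparison rests on the 6 arrays whose titles give ZT18 and 12 weeks, out of 32 arrays in the series: 3 jet-lagged (CJ) and 3 steady (NS) mice, 1 mouse per array. All mice were male wild-type C57BL/6 and were housed singly. CJ mice were shifted, starting at 4 weeks of age, between 2 schedules whose lights came on 8 h apart, whereas NS mice stayed in 12 h of light and 12 h of darkness. The labels do not say how long before death the last shift of a CJ mouse took place. Total liver RNA was labelled with Cy3 and hybridised to 1-colour Agilent arrays. Throughout, a level is the log2 processed signal of a probe minus the 75th percentile of its array, so that 0 is the 75th percentile and 1 unit is 2-fold. A difference is CJ minus NS on that scale, from a limma fit over all 12 groups of the series with slide as a random block, given ± its standard error. A gene was called where the Benjamini-Hochberg adjusted p over all genes tested was under 0.05, and each adjusted p below comes from that limma fit. The labels name each array as a separate mouse, so the p-values measure the spread between animals.

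As background, the liver clock is a feedback loop of transcription factors. BMAL1 (gene Arntl) and its partners CLOCK and NPAS2 bind E-box sequences and switch on the genes of their own repressors, the period and cryptochrome proteins and CIART, and also the genes of the receptors REV-ERB alpha and beta (Nr1d1, Nr1d2) and of the factors DBP, TEF and HLF. REV-ERBs in turn repress Arntl through ROR elements, where the ROR receptors activate it. In mouse liver, which receives its time of day both from light through the brain clock and from feeding, this loop drives daily rhythms in lipid, sterol, bile acid and glucose genes.

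For 4 genes that the results turn on, the promoter sequences are shown with the letters that match spellings of the elements such factors bind. Each is the 250 bases before the gene start, from RefSeq (GRCm38.p6), written 5′ to 3′ on the gene's strand. Capitals mark the E-box CACGTG in Ciart and Per1 and TNGGTCA, a loose spelling of the ROR element, in Arntl. In Hmgcs1 they mark the sterol element TCACNCCAC, the site of the sterol-sensing factor SREBP2. Both strands were searched.
Ciart (chr3:95882229-95882478, minus strand): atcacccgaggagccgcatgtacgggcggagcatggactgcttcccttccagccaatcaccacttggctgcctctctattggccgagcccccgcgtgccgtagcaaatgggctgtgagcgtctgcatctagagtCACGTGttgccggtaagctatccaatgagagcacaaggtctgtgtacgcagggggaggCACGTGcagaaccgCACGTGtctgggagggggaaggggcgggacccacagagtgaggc
Per1 (chr11:69098699-69098948, plus strand): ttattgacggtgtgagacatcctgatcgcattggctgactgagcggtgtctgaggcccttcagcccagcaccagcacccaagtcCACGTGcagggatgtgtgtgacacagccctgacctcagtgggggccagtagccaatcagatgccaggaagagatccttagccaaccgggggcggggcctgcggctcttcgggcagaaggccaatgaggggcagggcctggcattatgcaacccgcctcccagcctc
Arntl (chr7:113207215-113207464, plus strand): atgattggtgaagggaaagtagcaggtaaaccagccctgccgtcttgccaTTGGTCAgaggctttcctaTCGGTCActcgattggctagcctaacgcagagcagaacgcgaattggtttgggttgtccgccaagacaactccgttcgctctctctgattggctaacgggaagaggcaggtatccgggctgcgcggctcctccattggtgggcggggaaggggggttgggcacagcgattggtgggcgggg
Hmgcs1 (chr13:119690101-119690350, plus strand): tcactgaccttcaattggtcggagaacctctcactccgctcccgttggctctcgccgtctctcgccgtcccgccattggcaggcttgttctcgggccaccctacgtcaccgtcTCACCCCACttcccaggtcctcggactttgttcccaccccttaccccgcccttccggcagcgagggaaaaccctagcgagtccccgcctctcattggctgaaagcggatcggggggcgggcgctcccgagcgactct

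Counted from the gene start, the E-boxes of Ciart began at -116, -58 and -44 and that of Per1 at -166. The TNGGTCA matches of Arntl began at -200 and -181, and the sterol element of Hmgcs1 at -137. A match in letters is a description and shows no binding. The N of TNGGTCA admits any base and was T and C in the 2 matches of Arntl. Whether REV-ERB or ROR receptors bind these stretches was not tested. The TNGGTCA counts below rest on this loose spelling and are not counts of ROR elements. Windows of 250 bases before to 50 after the start were at hand for 27025 genes. Of these 7.24% held the E-box, 10.9% TNGGTCA, 0.955% the D-box TTATGTAA and 1.22% the sterol element. Of the 22 core clock genes measured, 17 had such a window. The E-box occurred in 5 of them (Per1, Cry1, Ciart, Bhlhe41 and Tef), TNGGTCA in 4 (Arntl, Per3, Cry2 and Nfil3) and the D-box in 1 (Per3). Of 26 genes of cholesterol synthesis and SREBP2 targets 18 had a window, and Hmgcs1 alone held the sterol element as spelled here.

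Between 25011 and 27967 of 55681 probes (44.9% to 50.2%) were well above background on the 6 arrays, and 0 spots were saturated. Pairs of arrays correlated over genes with r between 0.985 and 0.989 within CJ, between 0.984 and 0.989 within NS, and between 0.978 and 0.988 across the groups. The 10 hepatocyte markers had a mean level of 8.89 to 8.99 in CJ and 8.96 to 9.20 in NS livers. RNA of other tissues differed between mice. The 14 measured skeletal muscle markers averaged -3.46, -3.68 and 1.65 in CJ mice 1 to 3, against 1.32, 1.51 and 0.52 in NS mice 1 to 3, so CJ mice 1 and 2 stood apart from the other 4. The 11 pancreatic acinar markers averaged -2.11, 1.77 and -2.17 in CJ and 1.29, 0.97 and -2.56 in NS, high in CJ mouse 2 and NS mice 1 and 2. Of the 14 muscle markers 6, 5 and 14 were well above background in CJ mice 1 to 3, against 14, 14 and 13 in NS mice 1 to 3, and of the 11 acinar markers 7, 11 and 6 in CJ, against 11, 11 and 6 in NS. The median difference was -4.15 over the muscle markers and -0.81 over the acinar markers, with 0 called in either list. In bulk liver, fewer cells of a type and less RNA per cell cannot be told apart. The part of this RNA in the results was not tested. Counts without these arrays are given beside the results.

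**Figure D1:**
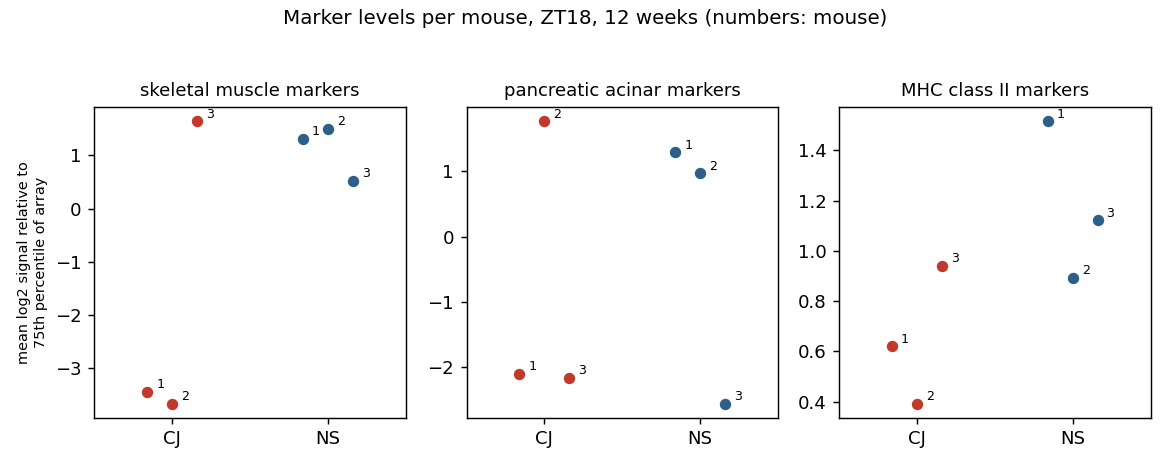
Mean log2 level of skeletal muscle (14 genes), pancreatic acinar (11 genes) and MHC class II (8 genes) markers in each of the 6 livers, CJ on the left and NS on the right of each panel, with the mouse number beside each point. CJ mice 1 and 2 lie at -3.46 and -3.68 for muscle while the other 4 lie at 0.52 to 1.65, and CJ mouse 2 and NS mice 1 and 2 lie at 0.97 to 1.77 for acinar genes.

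In jet-lagged livers the REV-ERB genes, Ciart, Dbp and Per1 were higher, and Arntl and most genes of cholesterol and fatty acid synthesis that passed the test were lower. Of 23109 genes tested, 654 (2.83%) were called, 218 higher (0.943%) and 436 lower (1.89%) in CJ. Of the called genes 163 differed by at least 2-fold, 64 higher and 99 lower, and 520 carried a gene symbol. The CJ and NS values did not overlap for 4559 genes (19.7%), and among the called genes for 641 (211 higher, 430 lower). The median difference over all genes was 0.02. CJ mouse 2 and NS mouse 1 were the only pair on a shared slide, and within that pair all 654 called genes differed in the direction of the fit, to which both arrays contributed, so the pair is no separate check. Called genes numbered 121 without the 3 arrays rich in acinar RNA (CJ mouse 2, NS mice 1 and 2) and 73 without the 2 arrays low in muscle RNA (CJ mice 1 and 2), alternatives chosen after seeing the data. All 654 kept their direction in both, which the choice of genes largely fixed. Without overlap, as in 641 of them, leaving out mice cannot turn the sign of a difference of means. The same limit holds wherever a kept direction under an alternative is given below.

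Among the activators of the clock, Arntl was lower in CJ livers. Its level was -1.27, -0.75 and -0.52 in CJ mice and 1.77, 1.37 and 1.64 in NS mice, so every CJ liver lay below every NS liver by more than 1 unit. The difference was -2.50 ± 0.50 (adjusted p = 0.00735, 2.83% of all genes called). Clock was 0.14, 0.42 and 0.23 in CJ and 0.92, 0.74 and 0.72 in NS livers. Its groups did not overlap, but the difference of -0.50 ± 0.18 did not pass (adjusted p = 0.153). Npas2 was not well above background on any of the 6 arrays.

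Nr1d1 was -0.93, -0.55 and -1.20 in CJ livers and -4.59, -5.77 and -3.27 in NS livers, where no array showed it well above background. It was at least 6.01-fold higher in CJ (fitted difference 3.82 ± 0.55, adjusted p = 0.000363), with each NS array raised to the faintest signal that counted there as well above background, as for each such bound below. Nr1d2 was 1.07, 1.12 and 0.90 in CJ and -1.02, -0.28 and -0.79 in NS livers, a difference of 1.82 ± 0.24 (adjusted p = 0.000168). Both REV-ERB genes were thus higher in all 3 CJ livers than in any NS liver. Rora, which encodes an activating receptor of the same elements, at 1.30 to 1.75 in CJ and 1.71 to 2.22 in NS livers, overlapped and was not called.

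Among the repressors, Ciart and Per1 rose. Ciart, a repressor of the BMAL1 complex with 3 E-boxes in its window, was 0.29, -0.76 and -1.14 in CJ and -3.78, -3.76 and -3.52 in NS livers. It was not well above background in any NS liver and was at least 7.69-fold higher in CJ (3.20 ± 0.45, adjusted p = 0.000287). Per1 was 3.40, 3.64 and 3.06 in CJ and 2.76, 1.86 and 1.66 in NS livers, a difference of 1.39 ± 0.36 (adjusted p = 0.0385). NS mouse 1 came nearest to the CJ values of Per1. The other period genes did not pass: Per2 was 0.08, -0.14 and 0.23 in CJ and -0.46, -0.22 and -0.16 in NS livers (0.38 ± 0.30, adjusted p = 0.567). Per3 was -1.60, -1.56 and -1.90 in CJ and -2.74, -2.36 and -3.14 in NS livers (1.22 ± 0.34, adjusted p = 0.0577). The groups did not overlap for either gene. Cry1, a cryptochrome repressor, was -1.63, -1.44 and -1.41 in CJ against -0.67, -0.92 and -1.11 in NS livers, a difference of -0.70 ± 0.34 that did not pass (adjusted p = 0.304). Cry2, Csnk1d and Csnk1e, the last 2 being kinases of the period proteins, overlapped between the groups, with differences of -0.03, -0.11 and -0.07.

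The factors that carry clock signals to D-box sequences were higher. Dbp was 5.68, 5.23 and 5.0 in CJ and 2.31, 2.77 and 2.57 in NS livers, 2.85 ± 0.42 higher (adjusted p = 0.000459). Each CJ liver exceeded each NS liver by more than 2 units. Tef was 6.77, 6.52 and 6.70 in CJ and 5.69, 6.15 and 6.05 in NS livers (0.78 ± 0.20, adjusted p = 0.0347), and Hlf averaged 3.18 in CJ and 2.73 in NS (0.49 ± 0.13, adjusted p = 0.0491). Nfil3, a repressor of the same sequences, was 2.93, 3.63 and 3.52 in CJ and 4.10, 4.17 and 4.66 in NS livers. Its difference of -0.94 ± 0.26 lay just outside the threshold (adjusted p = 0.0506), although no CJ value reached an NS value. Of 22 core clock genes, 7 were called higher and 2 lower against 0.943% and 1.89% of all genes, and 13 were not called. For 16 of the 22 the groups did not overlap, against 19.7% of all genes. The median difference of the 22 was 0.34, against 0.02 over all genes.

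Without the acinar-rich arrays 1 core clock gene was called, Nr1d2, and without the muscle-low arrays 0 were, while all 9 called genes kept their direction in both. Without the muscle-low arrays Nr1d1 differed by 3.33 (adjusted p = 0.0976), Ciart by 2.52 (0.0849), Dbp by 2.49 (0.0986) and Arntl by -2.35 (0.227), with CJ mouse 3 as the lone CJ liver, assumed to vary like the other groups. Arntl, Per1, Tef and Hlf were not called with slide as a fixed block (adjusted p = 0.0569, 0.0933, 0.0746 and 0.116).

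**Figure D2:**
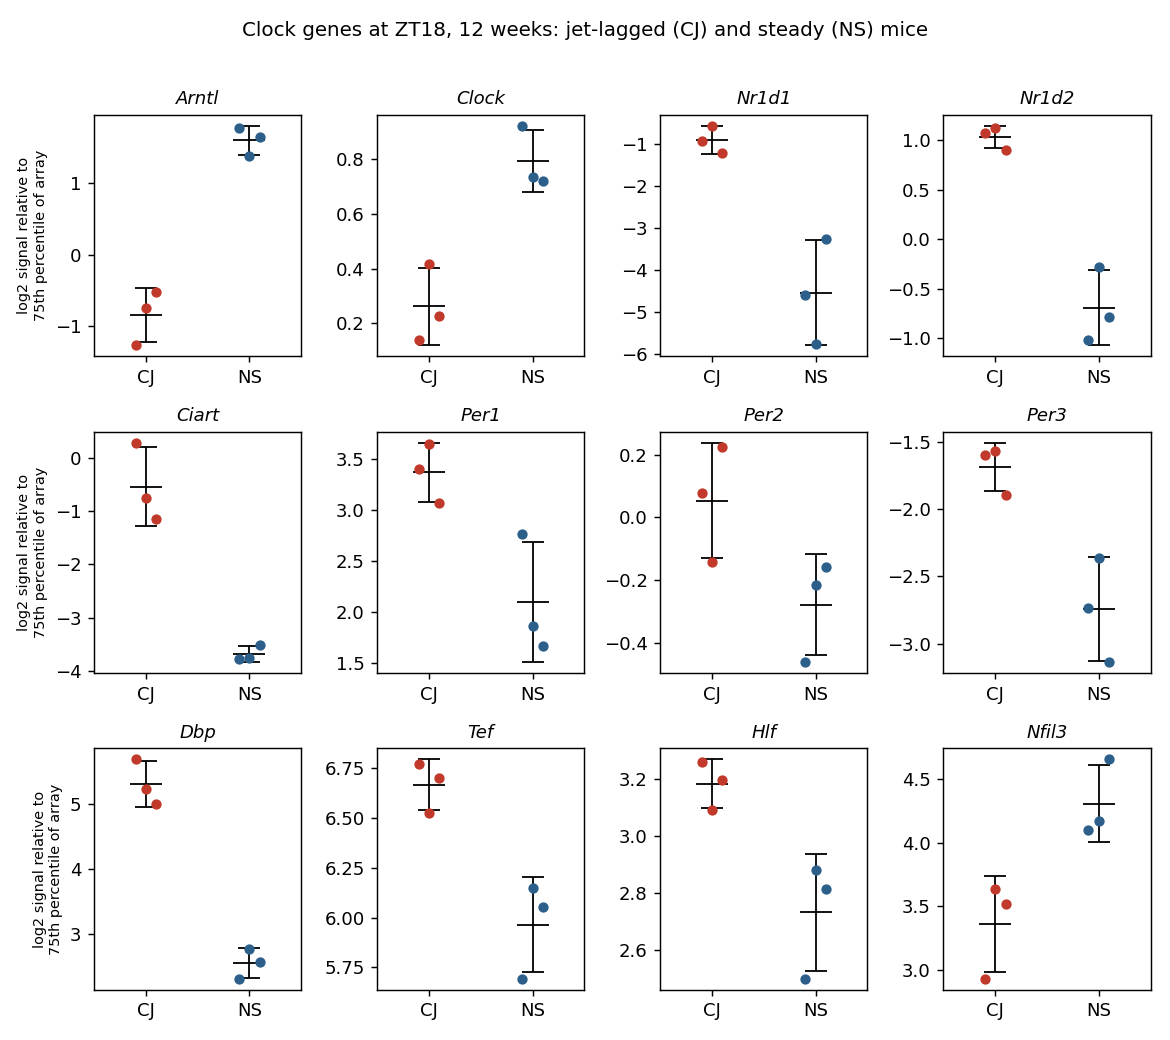
Log2 level of 12 clock genes in the 3 CJ (left, red) and 3 NS (right, blue) livers, each panel on its own scale, with the mean as a long line and bars of 1 SD. Arntl, Clock and Nfil3 were lower in every CJ liver than in any NS liver, and the other 9 genes shown were higher in every CJ liver.

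A list of 27 clock output genes, known to follow the liver clock, held 6 called higher and 6 called lower in CJ (background 0.943% and 1.89%). The higher ones included Mthfd1l, Noct, Usp2, Coq10b and Por, and the lower ones Lonrf3, Insig2, Ppard, Avpr1a, Elovl3 and Pnpla5. Noct, a clock-driven phosphatase of nicotinamide cofactors, was 4.25, 3.98 and 3.82 in CJ against 2.70, 2.60 and 2.35 in NS livers (1.58 ± 0.39, adjusted p = 0.0275; 0.0538 with slide as a fixed block). Mthfd1l, a mitochondrial enzyme of folate metabolism, was -0.62, -0.77 and -1.05 in CJ and -3.33, -2.04 and -2.42 in NS livers (1.86 ± 0.34, adjusted p = 0.00391). Avpr1a, the hepatic vasopressin receptor, was 0.12, 0.16 and 0.34 in CJ and 1.90, 1.85 and 1.92 in NS livers (-1.66 ± 0.23, adjusted p = 0.000287). Ppard, a nuclear receptor for fatty acids, was 1.07, 0.87 and 0.96 in CJ and 3.02, 2.18 and 2.54 in NS livers (-1.65 ± 0.15, adjusted p = 7.42e-06). Avpr1a and Ppard were thus separated by more than 1 unit between the groups, with narrow spread among CJ livers. With slide as a fixed block 2 of the 27 were called higher and 4 lower, and without the acinar-rich or the muscle-low arrays 1 was called lower and 0 higher in each case.

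Other called increases included Nrg4, Gpcpd1 and Pcsk4. Nrg4, which encodes the secreted growth factor neuregulin 4, was 2.02, 1.58 and 2.12 in CJ and -0.49, 0.05 and -0.27 in NS livers (2.23 ± 0.32, adjusted p = 0.000312). Lipg, endothelial lipase, was not well above background in NS livers and was at least 1.25-fold higher in CJ. Gpcpd1, a glycerophosphocholine phosphodiesterase, differed by 1.86 ± 0.38 (adjusted p = 0.00773). Pcsk4, a proprotein convertase, was 2.86, 3.30 and 2.96 in CJ and 1.45, 1.36 and 1.56 in NS livers (1.60 ± 0.22, adjusted p = 0.000287). Sftpa1, a surfactant protein, was at least 1.98-fold and Six3, a homeobox factor, at least 1.86-fold higher, and Bcl9 was not well above background in either group. The rule that picked the 15 called increases of largest fitted difference passed over 8 genes without a plain symbol.

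Called decreases outside the clock included Chrna4, Spon2 and Denn2b. Chrna4, a subunit of the nicotinic acetylcholine receptor, was -5.27, -4.41 and -4.23 in CJ livers, where it was not well above background, and -0.31, -0.76 and -1.11 in NS livers, so it was at least 6.88-fold lower (adjusted p = 0.000816). Loxl4, a lysyl oxidase, was at least 1.43-fold lower and Dhrs9, a retinol dehydrogenase, at least 1.44-fold lower, both well above background in 2 of 3 NS livers and in 0 of 3 CJ livers. Spon2, a secreted matrix protein, was -0.41, -0.30 and -0.13 in CJ and 1.59, 1.84 and 1.90 in NS livers (-2.04 ± 0.24, adjusted p = 6.6e-05). Denn2b differed by -1.94 ± 0.23 with the same adjusted p. Nfe2, an erythroid transcription factor, differed by -2.24 ± 0.47 and E2f8, a repressor of cell cycle genes, by -2.08 ± 0.47 (adjusted p = 0.0104 and 0.017). The 5 measured erythroid markers averaged 4.39 to 4.44 in CJ and 4.67 to 4.93 in NS livers, with 0 called, and their part in the value of Nfe2 was not tested. Ptk6, Rad51ap1 and Fzd6 had bounds of 1.11, 1.08 and 1.18-fold, and Tmem171 was not well above background in either group.

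Genes of cholesterol synthesis were lower. Of the 26 listed genes 10 were called lower and 0 higher (background 1.89% and 0.943%). In 20 every CJ liver was lower than any NS liver, where 19.7% of all genes lacked overlap in either direction. All 26 values were below 0, with a median of -0.61 against 0.02 over all genes. Mvd, the mevalonate decarboxylase, was 1.21, 1.84 and 1.28 in CJ and 3.43, 3.14 and 3.15 in NS livers (-1.77 ± 0.25, adjusted p = 0.00035). Pmvk, the kinase that acts before it, was 5.68, 5.88 and 5.29 in CJ and 7.05, 7.0 and 6.86 in NS livers (-1.28 ± 0.26, adjusted p = 0.00723). In both genes the NS livers lay within a narrow band above all CJ livers. Hmgcs1, the synthase that feeds the pathway and whose promoter is shown above, was 5.24, 5.45 and 4.97 in CJ and 6.60, 6.45 and 6.40 in NS livers (-1.18 ± 0.32, adjusted p = 0.0462).

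Sqle, Lss, Fdft1, Dhcr7 and Sc5d, enzymes between squalene and cholesterol or at its branch point, were called lower with differences of -1.10, -1.15, -0.89, -0.90 and -0.56. Sqle was 4.37, 4.44 and 4.40 in CJ and 5.58, 5.57 and 5.56 in NS livers. Srebf2, the gene of the factor that drives the pathway, was -0.92, -1.43 and -0.98 in CJ and -0.81, -0.64 and -0.24 in NS livers and did not pass (-0.52 ± 0.21, adjusted p = 0.197). Insig2, an inhibitor of SREBP processing counted above among clock outputs, was lower by the test (-1.15 ± 0.29, adjusted p = 0.0332). Without the acinar-rich arrays and without the muscle-low arrays 1 of the 26 was called lower, Mvd in each case, and 25 and 26 of the 26 values were below 0. With slide as a fixed block 2 of the 10 calls held, Mvd (adjusted p = 0.00854) and Pmvk (0.04), while Hmgcs1 (0.195), Lss (0.09), Sqle (0.116), Fdft1 (0.0991), Dhcr7 (0.119) and Sc5d (0.176) were among those lost.

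**Figure D3:**
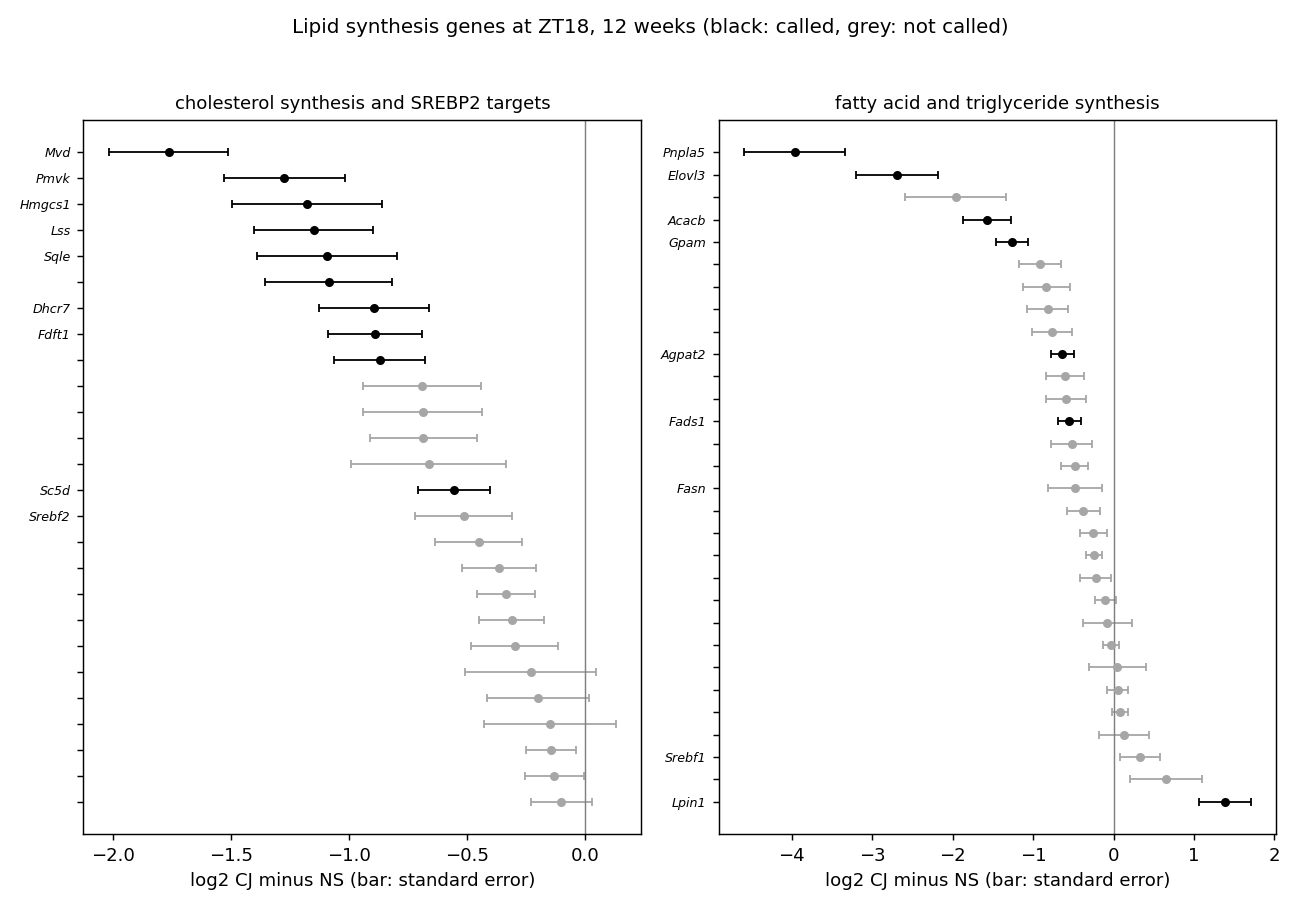
Difference between CJ and NS livers (log2, horizontal axis) for each tested gene of cholesterol synthesis (left, 26 genes) and of fatty acid and triglyceride synthesis (right, 30 genes), with bars of 1 standard error, black points for called genes, and names for the genes described in the text. All 26 cholesterol genes lie left of 0, and Lpin1 is the only called gene right of 0 in the second panel.

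Among 30 genes of fatty acid and triglyceride synthesis 6 were called lower and 1 higher (background 1.89% and 0.943%), and the median was -0.48. Without overlap 17 were lower and 3 higher, against 19.7% of all genes in either direction. Elovl3, an elongase of very long fatty acids, was 3.20, 3.47 and 3.84 in CJ and 6.41, 6.10 and 6.04 in NS livers (-2.69 ± 0.51, adjusted p = 0.00478). Pnpla5, a triglyceride lipase of the patatin family, was -5.64, -5.36 and -5.79 in CJ livers, not above background, and -0.95, -1.28 and -1.71 in NS livers, at least 4.59-fold lower (adjusted p = 0.000958). Both genes were lower in all 3 CJ livers than in any NS liver. Acacb, the acetyl-CoA carboxylase at mitochondria, was 3.13, 3.86 and 3.27 in CJ and 5.20, 5.02 and 5.22 in NS livers (-1.57 ± 0.30, adjusted p = 0.00478). Gpam, the first acyltransferase of glycerolipid synthesis, was -0.64, -0.64 and -0.99 in CJ against 0.66, 0.56 and 0.52 in NS livers (-1.26 ± 0.19, adjusted p = 0.000694). Agpat2, the next acyltransferase, and Fads1, a desaturase, were also called lower (-0.64 and -0.55). Lpin1, a phosphatidate phosphatase and coactivator, was the called increase, at 3.09, 3.20 and 3.13 in CJ and 1.90, 2.10 and 1.23 in NS livers (1.38 ± 0.33, adjusted p = 0.022). Fasn, the fatty acid synthase, was 2.92 to 3.17 in CJ and 3.53 to 3.81 in NS livers without passing (-0.48 ± 0.34, adjusted p = 0.516). Srebf1, which encodes the factor SREBP1, was 3.01 to 3.10 in CJ and 2.69 to 2.91 in NS livers (0.33 ± 0.25, adjusted p = 0.555). Without the acinar-rich or the muscle-low arrays 1 of the 30 was called lower in each case, and all 7 kept their direction. With slide as a fixed block 4 were called lower and 0 higher (Lpin1, adjusted p = 0.07).

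In fatty acid oxidation 1 of 30 genes was called higher and 1 lower, against a background of 0.943% and 1.89%. Cpt1a, the carnitine palmitoyltransferase that admits fatty acids to mitochondria, was 5.74, 5.56 and 5.93 in CJ and 4.58, 5.06 and 5.33 in NS livers (0.72 ± 0.18, adjusted p = 0.035). Pdk4, the kinase that turns off pyruvate dehydrogenase, was -1.25, -0.11 and -0.02 in CJ and 1.54, 0.68 and 1.93 in NS livers (-1.84 ± 0.37, adjusted p = 0.00723). Neither gene overlapped between the groups. Neither was called with slide as a fixed block (adjusted p = 0.17 for Cpt1a and 0.0768 for Pdk4), and of the 30 genes 1 was called without the acinar-rich and 0 without the muscle-low arrays. Of 19 lipid droplet proteins and PPARG targets Pnpla2, the main triglyceride lipase, was called higher (0.57), and its coactivator Abhd5 and the droplet protein Hilpda lower (-0.48 and -0.47). Of these 19, 0 were called with the fixed block, 1 without the acinar-rich and 0 without the muscle-low arrays.

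Bile acid and transporter genes differed in a few members. Of 17 bile acid genes 2 were called lower and 0 higher (background 1.89% and 0.943%). Cyp2c70, the enzyme that makes muricholic acids in mice, was 7.24, 7.26 and 6.63 in CJ and 8.29, 8.30 and 8.42 in NS livers (-1.17 ± 0.23, adjusted p = 0.00544), and Fgfr4, the receptor for intestinal FGF15, differed by -0.53 ± 0.11 (adjusted p = 0.0103). Cyp7a1, whose product limits the rate of bile acid synthesis, was 3.95 to 4.10 in CJ and 3.43 to 3.87 in NS livers and did not pass (0.40 ± 0.35, adjusted p = 0.631). Of 18 transporters 2 were called higher and 3 lower (background 0.943% and 1.89%). Abcg5 and Abcg8 encode the paired subunits of the canalicular sterol exporter. Abcg5 was 5.36, 5.17 and 5.49 in CJ and 4.08, 4.17 and 4.56 in NS livers (1.17 ± 0.19, adjusted p = 0.00115), and Abcg8 was -0.40, -0.79 and 0.11 in CJ and -2.08, -1.45 and -1.09 in NS livers (1.27 ± 0.26, adjusted p = 0.00731). The pair lies head to head on chromosome 17 (GRCm38.p6), Abcg5 on the minus and Abcg8 on the plus strand, with gene starts 110 bases apart and 209 bases shared by their promoter windows. Aqp8, a water channel of the canaliculus, was 5.19, 5.34 and 5.57 in CJ and 7.65, 7.55 and 7.47 in NS livers (-2.15 ± 0.28, adjusted p = 0.000168). All 3 CJ livers were more than 1 unit below all NS livers. The bile salt export pump Abcb11 and the phospholipid flippase Atp8b1 were also lower (-0.56 and -0.66, adjusted p = 0.00164 and 0.0486). With slide as a fixed block Fgfr4 (adjusted p = 0.0593) and Atp8b1 (0.195) were not called. Without the acinar-rich and without the muscle-low arrays 1 and 2 of the transporters were called, all lower, and 1 bile acid gene in each case.

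In glucose metabolism 3 of 30 genes were called higher and 0 lower, against 0.943% and 1.89% of all genes. Pck1, the gluconeogenic phosphoenolpyruvate carboxykinase, was 8.02, 7.96 and 7.63 in CJ and 6.10, 6.89 and 6.17 in NS livers (1.53 ± 0.33, adjusted p = 0.0137). Gys2, the liver glycogen synthase, and Foxo1, a factor that insulin keeps out of the nucleus, differed by 0.55 ± 0.15 and 0.46 ± 0.11 (adjusted p = 0.0462 and 0.0284). Pck1, Gys2 and Foxo1 were not called with slide as a fixed block (adjusted p = 0.0668, 0.112 and 0.095), and 0 of the 30 genes were called without the acinar-rich or without the muscle-low arrays.

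Stress and immune lists held few called members, against a background of 0.943% higher, 1.89% lower and 19.7% without overlap. Of 27 genes of the unfolded protein response 2 were called higher and 1 lower: Herpud1, part of the machinery that removes misfolded proteins, was 7.62, 7.29 and 7.70 in CJ and 6.56, 6.49 and 6.87 in NS livers (0.89 ± 0.14, adjusted p = 0.000988). Ddit3, the stress factor CHOP, was also higher (0.81 ± 0.22), and Xbp1, the factor spliced in this response, was lower (-0.61 ± 0.13, adjusted p = 0.0109). Of 20 heat shock chaperones 2 were called lower, Hspa4l (-0.84) and Fkbp4 (-0.67), and 0 higher, and of 2 cold-induced genes, Cirbp and Rbm3, 0 were called (0.26 and 0.09). Of 31 acute phase genes 2 were called higher, the metallothionein Mt1, at 4.48, 4.74 and 4.43 in CJ and 3.25, 3.17 and 3.30 in NS livers (1.41 ± 0.32, adjusted p = 0.0165), and Il6ra, the interleukin 6 receptor, at 5.60, 5.28 and 5.29 in CJ and 4.48, 4.49 and 4.09 in NS livers (1.06 ± 0.18, adjusted p = 0.00179). Of 25 interferon response genes 1 was called lower, Irgm1 (-0.40), and of 8 MHC class II genes 0 were called, although 5 were lower without overlap. Their mean level was 0.62, 0.39 and 0.94 in CJ and 1.52, 0.89 and 1.12 in NS livers, which overlapped. Of 30 NRF2 and glutathione genes 1 was called lower, Gstm7 (-0.84). Of these lists, without the acinar-rich arrays 1 acute phase gene was called higher and 1 NRF2 and glutathione gene lower, and without the muscle-low arrays 1 gene of the unfolded protein response higher. With slide as a fixed block Mt1 (adjusted p = 0.075), Ddit3 (0.0778) and Irgm1 (0.133) were not called.

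The remaining lists held between 0 and 3 called genes in each direction, against a background of 0.943% higher and 1.89% lower. Growth hormone and sex-biased genes had 0 higher and 3 lower of 21 (Elovl3, Nat8f5 at -0.74 and Stat5b at -0.34), and cytoskeletal genes 0 higher and 3 lower of 20 (Tubb2a at -1.63, Vcl at -0.66 and Tuba4a at -0.48). The value of Tubb2a, a beta tubulin, is uncertain, since a probe of its pseudogene Tubb2a-ps2 differed by -1.62. Whether the probes tell gene and pseudogene apart was not tested. Of 21 CAR and PXR targets 1 was called higher, Por, the electron donor of cytochrome P450 enzymes (7.44, 7.66 and 7.58 in CJ and 6.46, 6.45 and 6.67 in NS livers, 1.01 ± 0.21, adjusted p = 0.00998). Of 24 cell cycle genes Ccne1, cyclin E1, was called higher (1.14), and of 27 Myc, p53 and growth genes Bbc3, the death factor PUMA, lower (-1.08). The call of Ccne1 rested on its brightest probe. Its other probe past the filter differed by 0.06, and with the mean of its probes the value was 0.59 (adjusted p = 0.37). Periportal genes had 1 higher and 1 lower of 18 (Pck1 and the urea cycle enzyme Cps1 at -0.60). With slide as a fixed block Nat8f5 (adjusted p = 0.0668), Stat5b (0.135), Tubb2a (0.132), Vcl (0.0566) and Tuba4a (0.154) were not called. Nor were Ccne1 (0.0824), Bbc3 (0.0616), Cps1 (0.154) and Pck1 (0.0668), while Por (0.0489) and Elovl3 (0.0479) were. In ribosome biogenesis 0 of 32 genes were called, in iron handling 0 of 14 and among pericentral genes 0 of 14, with 8, 5 and 4 at unadjusted p under 0.05 in limma. The gene of largest difference was Hamp2, a hepcidin gene, in iron handling (-1.60, adjusted p = 0.122), Cyp27a1 among pericentral genes (-0.62) and Utp15 in ribosome biogenesis (0.55). The value of Utp15 rested on CJ mouse 3, at -1.35 against -3.30 and -3.67 in CJ mice 1 and 2 and -3.51, -3.28 and -3.42 in NS mice. It was -0.13 without CJ mouse 3, 1.06 without CJ mouse 2 and 2.04 without the muscle-low arrays (adjusted p = 0.00182). Of these lists, 1 cytoskeletal gene was called lower without the acinar-rich arrays, and 1 gene of ribosome biogenesis higher without the muscle-low arrays.

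**Figure D4:**
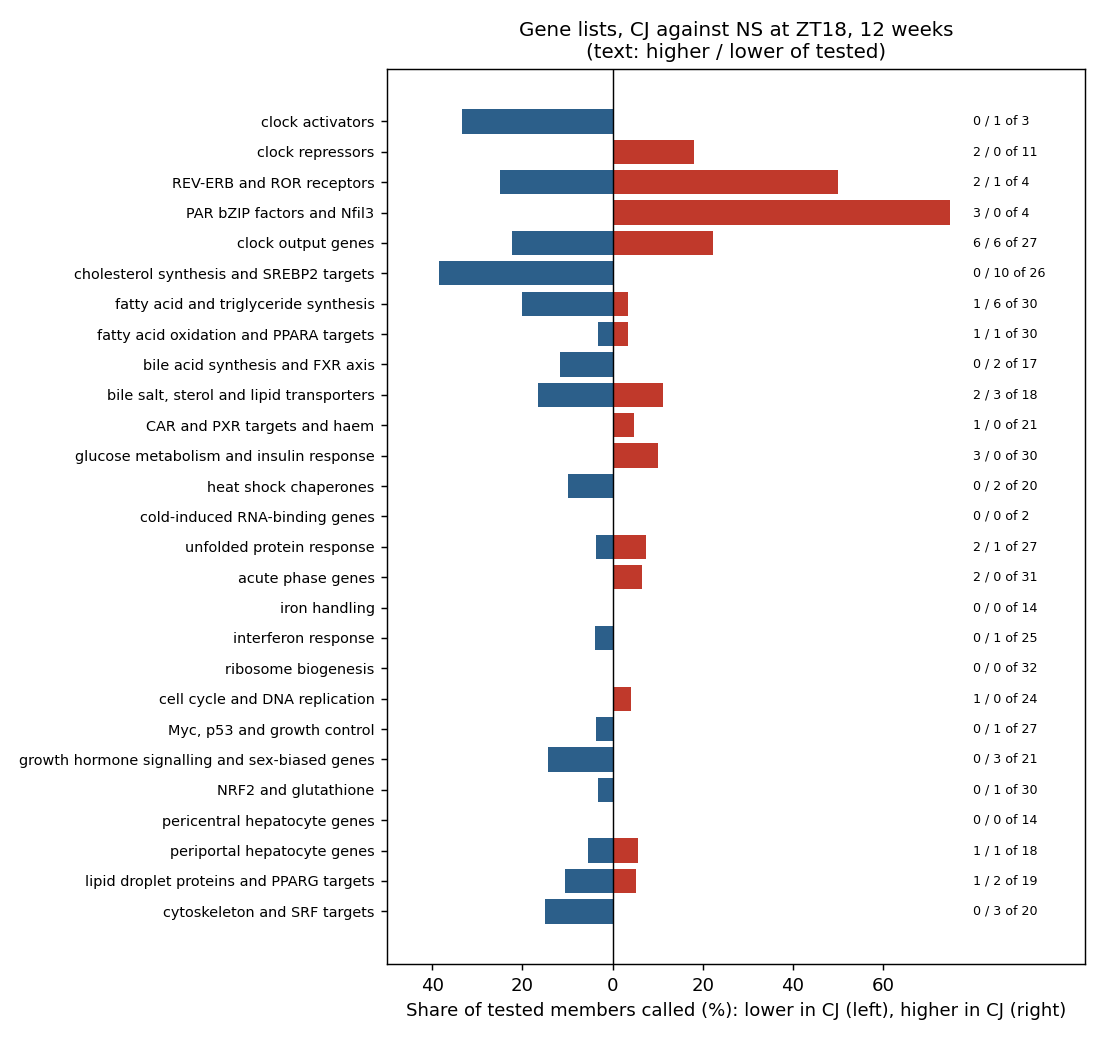
Share of tested genes of 27 lists that were called lower (blue, left of 0) or higher (red, right of 0) in CJ than in NS livers, in percent, with the counts higher / lower of tested at the right. The bar of the cholesterol list (0 / 10 of 26) lies wholly on the lower side and that of DBP, TEF, HLF and NFIL3 (3 / 0 of 4) wholly on the higher side.

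At 30 weeks another 3 CJ and 3 NS mice gave the same comparison at ZT18. There 803 genes (3.47%) were called, and 261 genes were called at both ages, 39.9% of the 12 week calls and 32.5% of the 30 week calls, 259 of them in the same direction. Of the 654 genes called at 12 weeks 585 (89.4%) had the same sign at 30 weeks, against 56.5% of all genes. The higher genes had a median difference of 0.72 at 12 weeks and 0.43 at 30 weeks, and the lower genes of -0.66 at 12 weeks and -0.40 at 30 weeks. They were chosen at 12 weeks, which favours that age. The mice were other animals, but the 2 comparisons share slides and the error estimate. The clock genes were alike: Nr1d1 differed by 4.25, Ciart by 3.18, Dbp by 3.05 and Arntl by -2.17 at 30 weeks (adjusted p = 0.000257, 0.000371, 0.000368 and 0.0164). Of 22 core clock genes 10 were called at 30 weeks, and 21 had the same sign at both ages. Elovl3 differed by -3.11, Mvd by -1.49 and Spon2 by -1.62 (adjusted p = 0.0014, 0.00179 and 0.000607). As a list, the 30 genes of fatty acid and triglyceride synthesis had a median of 0.33 at 30 weeks, against -0.48 at 12 weeks. At 30 weeks 3 of them were called higher and 1 lower, so the lower values of this list were not seen there. The 26 cholesterol genes had a median of -0.53 at 30 weeks, with 0 called higher and 5 lower.

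Several genes had other values at 30 weeks. Pnpla5 differed by 0.40 there (adjusted p = 0.843), with mean levels of -2.87 in CJ and -3.44 in NS livers, and E2f8 by 0.51 (adjusted p = 0.676). Rad51ap1, a DNA repair factor, differed by 1.62 (adjusted p = 0.0782), Il6ra by 0.07 and Acacb by -0.27. The test of the difference itself, the 12 week difference minus the 30 week difference, called 0 genes (0%), with a smallest adjusted p of 0.0615 and 1795 genes at unadjusted p under 0.05. Without the acinar-rich arrays it called 21 genes, without the muscle-low arrays 11.

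**Figure D5:**
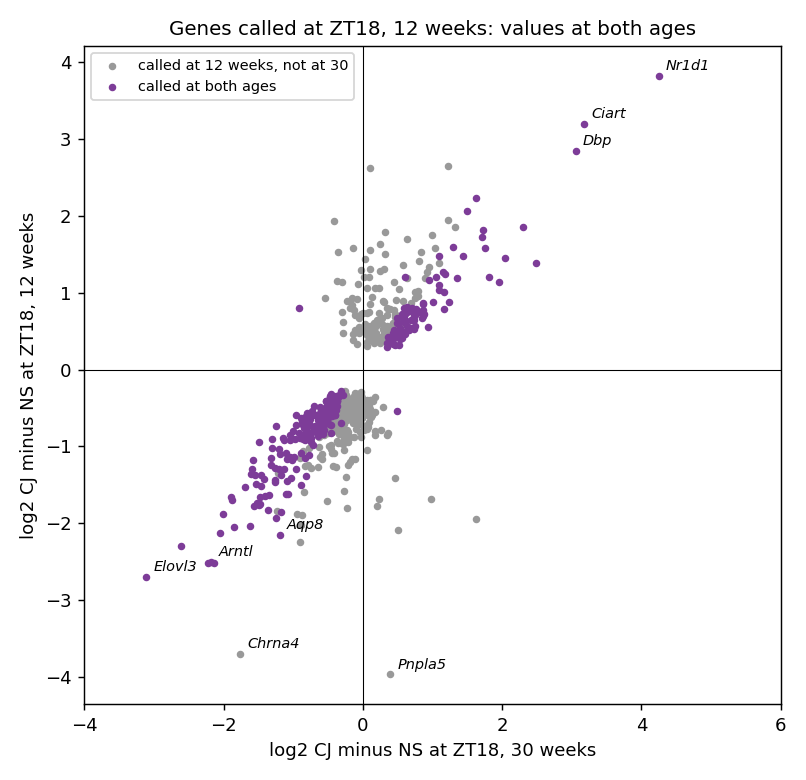
The 654 genes called at 12 weeks, each with its difference between CJ and NS livers at 12 weeks (vertical axis, log2) and at 30 weeks (horizontal axis, log2), both at ZT18. Purple points were called at both ages (261 genes), and 585 of the 654 lie in the quadrants where both differences have the same sign, while Pnpla5 is at -3.96 at 12 weeks and 0.40 at 30 weeks.

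ZT10, late in the light phase, was sampled at 12 weeks in another 3 CJ and 3 NS mice, and the clock genes there had the opposite sign. All 9 core clock genes called at ZT18 differed in the other direction at ZT10. Dbp averaged 5.30 in CJ and 2.55 in NS livers at ZT18, against 5.64 in CJ and 7.0 in NS livers at ZT10. The 2 times were thus close in CJ livers and far apart in NS livers. Arntl averaged -0.85 in CJ and 1.60 in NS livers at ZT18, against -0.92 in CJ and -3.64 in NS livers at ZT10. Nr1d2 averaged 1.03 in CJ and -0.69 in NS livers at ZT18, against 1.15 in CJ and 1.59 in NS livers at ZT10. The difference at ZT18 minus that at ZT10 was 4.29 ± 0.62 for Dbp, -5.22 ± 0.73 for Arntl and 2.29 for Nr1d2 (adjusted p = 0.000535, 0.000483 and 0.000826). Over all genes it was called for 573 (2.48%), 221 positive and 352 negative (441 and 442 in the authors' deposited table), and for 10 of the 22 core clock genes. Clock, Cry1 and Nfil3, not called at ZT18 alone, were among these (-1.29, -2.28 and -2.15, adjusted p = 0.00964, 0.0139 and 0.00333).

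Outside the clock, some genes differed alike at both times. Aqp8 differed by -2.15 at ZT18 and by -1.55 at ZT10 (adjusted p = 0.00903), with a difference between the times of -0.60 that did not pass (adjusted p = 0.541). Chrna4, at -3.70 at ZT18, differed by -2.48 at ZT10 (adjusted p = 0.0295), and Gstm7, at -0.84 at ZT18, by -0.58 (adjusted p = 0.0173). Hmgcs1, Mvd and Pmvk were -0.80, -0.60 and -0.38 at ZT10 without passing, and the difference between the times did not pass for them either (-0.38, -1.17 and -0.90, adjusted p = 0.774, 0.101 and 0.244). Abcg5 and Abcg8 differed by -0.26 and -0.60 at ZT10, and for them the difference between the times was called (1.42 and 1.87, adjusted p = 0.00694 and 0.00821). Of the 654 genes called at ZT18, 267 (40.8%) had the same sign at ZT10, against 52.6% of all genes, and 46 (7.03%) were called there, against 395 of all genes (1.71%). Without the acinar-rich arrays of ZT18 the difference between the times was called for 150 genes, without the muscle-low ones for 122, and with the muscle and acinar marker levels of each array as covariates for 8.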

How the data were processed

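Liver RNA of 32 mice was measured on 1-colour Agilent arrays. The authors deposited for each array the output of Agilent Feature Extraction, which holds a processed intensity, background-subtracted and detrended within the array per the file headers (version 11.0.1.1, while the submitters' processing notes name 9.1). They also deposited a table of log2 values for 15148 probes, normalised and freed of an unnamed batch effect per the series' design text. That table served as an alternative. All 32 of its columns matched their own array most closely (r at least 0.994).

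Control and outlier spots were left out and spots of a probe averaged. Signals were log2 transformed and scaled to the 75th percentile of each array. Of 55681 probes 30487 were kept, those well above background throughout at least 1 of the 12 groups, and the brightest probe stood for a gene. Symbols came from a RefSeq table (GRCm38.p6), which gave none for 29099 probes. The 12 group means were fitted by generalised least squares with limma 3.58.1 (R 4.3.3, statmod 1.5.0, data.table version 1.17.8), a random slide effect (8 slides with 4 arrays each, correlation 0.254) and moderated variances. A gene with a missing value was fitted on its other arrays (15 genes on the 6 arrays). The pipeline was tested on simulated data. The number of arrays limits the precision.

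Members and gene lists were chosen with earlier results of these data known. Named genes are the 15 higher and 15 lower called genes of largest fitted difference without overlap, all core clock genes, up to 4 called members of each other list (or the 1 of largest difference), and the 5 largest in each direction of each test of a difference. Other genes given with values were chosen after these were seen. Alternatives changed the background correction, normalisation, probe filter, probe rule, slide block, variance model, values, covariates and mice. The planned normexp correction (offset 50) used the median signal of each spot, since the mean signal was not among the columns. Some genes that the naming rule picked are not reported here.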

Additional observations from a re-analysis of the deposited data

Results flagged for a closer look

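For 10 genes the difference between CJ and NS livers at 12 weeks was itself different at ZT18 and ZT10 by the interaction test in limma, and these had the 5 largest fitted values in each direction among 573 called genes. Nr1d1 and Ciart were not well above background in any NS liver at ZT18, so the sizes fitted for them, and their rank, are not exact. In the positive direction, the difference at ZT18 minus that at ZT10 was 5.66 ± 0.81 for Nr1d1 (3.82 at ZT18, -1.83 at ZT10, adjusted p = 0.000516), 4.75 ± 0.65 for Ciart (3.20 and -1.55, adjusted p = 0.000404) and 4.29 ± 0.62 for Dbp (2.85 and -1.44, adjusted p = 0.000535). Rgs16, a regulator of G protein signalling with a strong daily rhythm in mouse liver, had 5.07 ± 1.37 (2.71 and -2.36, adjusted p = 0.0497), with levels of 2.48, 2.33 and 3.48 in CJ and 0.22, -1.36 and 1.55 in NS livers at ZT18. Nrg4 had 2.84 ± 0.46 (2.23 and -0.62, adjusted p = 0.00159).

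In the negative direction, Mb, muscle myoglobin, had -10.74 ± 2.78 (-5.73 at ZT18, 5.02 at ZT10, adjusted p = 0.0404). It was -5.74, -5.23 and 2.17 in CJ and 1.80, 1.89 and 1.15 in NS livers at ZT18, well above background in 1 of 3 CJ livers, and low in the 2 CJ livers that were low in muscle markers. Its difference at ZT18 was not called in the fit as reported (-5.73, adjusted p = 0.119) or with marker covariates (-1.09, adjusted p = 0.387). As Mb is itself a muscle gene, a smaller value with muscle markers as a covariate is no separate check. Arntl had -5.22 ± 0.73 (-2.50 and 2.72, adjusted p = 0.000483). Zbtb7c, a zinc finger factor, had -4.39 ± 1.03 (-2.23 and 2.16, adjusted p = 0.0223) and was not well above background in any CJ liver at ZT18. Cyp26b1, which degrades retinoic acid, had -4.33 ± 0.86 (-1.15 and 3.17, adjusted p = 0.00821), and NS mouse 1, at 0.84, lay among the CJ livers at 0.61, 1.31 and 0.94, below the other NS livers at 3.29 and 2.85. Elovl3 had -3.97 ± 0.75 (-2.69 and 1.28, adjusted p = 0.0054). No group held 4 mice, so single mice were not examined as outliers.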

How the results depend on the processing

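Of the 654 genes called at ZT18, 0 turned sign under any alternative in which they were present (473 of them in the authors' table), and of the 573 called between times 1 of 454 present did, in the authors' table. The mean of probes was not counted here. As 641 of the 654 did not overlap between the groups, their signs were largely fixed by the choice of genes. The 654 calls at ZT18 became 334 with no filter on dim probes, 223 with slide as a fixed block (206 of the 654 shared), 219 with muscle and acinar marker covariates (210 shared), 75 with only the 6 arrays, 121 without the acinar-rich arrays, 73 without the muscle-low arrays, and 304 (without CJ mouse 2) to 490 (without CJ mouse 3) without 1 mouse. The other counts without 1 mouse were 317 (CJ mouse 1), 374, 372 and 381 (NS mice 1, 2 and 3). Normexp, quantile normalisation, the stricter filter, the mean of probes, no block, the trend model and the authors' table gave 445 to 883 calls, with a lower share of 66.7% in the fit as reported and 57% in the authors' table, 78.7% with only the 6 arrays. The 573 differences between ZT18 and ZT10 became 308 with no filter, 114 with a fixed block, 883 in the authors' table (50.1% negative against 61.4%), 8 with covariates, 146 with only the groups compared, 150 and 122 without the acinar-rich and muscle-low arrays, and 223 (without NS ZT10 mouse 3) to 601 (without CJ ZT10 mouse 1) without 1 mouse, among them 300 (CJ ZT10 mouse 2), 335 (NS ZT18 mouse 1), 374 and 356 (CJ ZT18 mice 1 and 2). The 0 differences between ages became 3 with quantile normalisation, 3 with probes above background on all arrays, 4 with the mean of probes, 21 and 11 without the acinar-rich and muscle-low arrays, and 0 to 4 without 1 mouse (3 without NS mouse 1 of 12 weeks, 4 without NS mouse 3 and 1 without CJ mouse 1 of 30 weeks). The cause was not tested.

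Of 92 genes picked by the naming rule 71 were called, all in the same direction under every alternative that held them. Leaving aside the 2 alternatives without several arrays, 16 were on all groups, including each mouse left out. The call held in each of these that held the gene for 23: Abcg5, Acacb, Aqp8, Avpr1a, Chrna4, Ciart, Cyp2c70, Dbp, Denn2b, Elovl3, Gstm7, Herpud1, Hspa4l, Il6ra, Mthfd1l, Mvd, Nr1d1, Nr1d2, Nrg4, Pcsk4, Pmvk, Pnpla5 and Spon2. Chrna4, Ciart, Mthfd1l and Nr1d1 were in 15 of the 16 and Pnpla5 in 14. Without the acinar-rich arrays 13 of the 71 were called and without the muscle-low arrays 9, 7 of the 23 in each case, with Denn2b, Mvd, Nrg4 and Spon2 called in both. With only the 6 arrays, an alternative not among the 16, 25 of the 71 were called and 46 were not. The authors' table held 58 of the 71 and called 51. Of the 156 called genes with several probes, 13 had a probe of the opposite sign. With the mouse number as a replicate block on the 6 arrays 0 genes were called (2456 at unadjusted p under 0.05), 0 between ages and 0 between times (2686). The labels do not say whether mice of the same number belong together. Deviations of mice of the same number correlated with r = -0.162, -0.129 and 0.215. Those of CJ mouse 2 and NS mouse 1, which share a slide, correlated with r = 0.383. With so few mice per group these correlations depend on each other, so they cannot decide whether mouse numbers pair the samples. Dim genes are limited by background: 4 called genes were below it in both groups.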

Other observations

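Genes outside the lists, chosen after their values were seen, include metabolic and receptor genes. Sucnr1, the succinate receptor, was 3.45, 3.68 and 3.48 in CJ and 4.99, 5.05 and 4.96 in NS livers at ZT18 (-1.38 ± 0.16, adjusted p = 6.6e-05 in limma), and it differed by -0.82 at 30 weeks and -0.71 at ZT10 (adjusted p = 0.0042 and 0.0207). Dnmt3b, a DNA methyltransferase, differed by -1.85 ± 0.27 (adjusted p = 0.000373), with -1.18 at 30 weeks (adjusted p = 0.0151). Ddc, which makes dopamine and serotonin, differed by -1.49 and Cldn1, a tight junction protein, by -1.52. St3gal5, the ganglioside GM3 synthase, was 6.25, 6.22 and 6.38 in CJ and 5.10, 5.26 and 4.93 in NS livers (1.21 ± 0.16, adjusted p = 0.000219). Fkbp5, a glucocorticoid-induced chaperone, was 4.16, 4.05 and 4.29 in CJ and 3.21, 3.14 and 3.25 in NS livers (0.91 ± 0.20, adjusted p = 0.0144), with 0.82 at ZT10 (adjusted p = 0.0366).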
